A study of Rattus norvegicus with 12 samples.

Results

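Losartan and its vehicle were compared in the lungs of rats with monocrotaline (MCT) pulmonary hypertension, across all genes measured. The 6 libraries of this comparison, of 12 in the series, were taken by their treatment labels, with 3 rats given losartan (Los_925, Los_964 and Los_965) and 3 given phosphate-buffered saline (Veh_923, Veh_924 and Veh_963), and 1 lung library for each rat. All 6 animals were labelled as the MCT model at 9 weeks of age, and the study's methods describe male Sprague-Dawley rats injected once with MCT at 60 mg/kg, with losartan delivered at 10 mg/kg/day by subcutaneous minipump. For the hemodynamic arm the pumps were placed 1 week after MCT and ran for 2 weeks, and the arm that gave the sequenced lungs is not stated. The other 6 libraries came from MCT rats given AngII (angiotensin II, 1 mg/kg/day) or TRV023 (an agonist biased toward β-arrestin), with 3 rats in each group. Every group carried the MCT injury, so these values describe the diseased lung with and without the drug and hold no healthy lung as a baseline. Animals are named by group and number, and numbers beginning with 92 or 96 are treated below as a number series of the labels, whose meaning is not given. Series 92 holds Los_925, Veh_923 and Veh_924, and series 96 holds Los_964, Los_965 and Veh_963. A difference within a series therefore rests on Los_925 as the only losartan rat or Veh_963 as the only vehicle rat, and is given as a description.

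The angiotensin II type 1 receptor (AT1R) is a G protein-coupled receptor through which AngII constricts vessels and promotes growth of smooth muscle and fibroblasts. AngII is released from angiotensinogen by proteases, and in rodents Agtr1a encodes the main form of AT1R. Losartan is a blocker of this receptor and prevents signaling through both its G proteins and its β-arrestins. MCT is a plant alkaloid whose liver metabolite injures the lung endothelium and is followed by inflammation and remodeling of the pulmonary arteries.

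The libraries held 17192919 to 19792739 counted reads in the losartan group and 19281244 to 20082623 in the vehicle group, and the lung was recognizable in all of them by the surfactant gene Sftpc, at 5721 to 16390 FPKM, and the club cell gene Scgb1a1, at 9475 to 29880 FPKM. FPKM is the read count of a gene divided by its length and by the library total. Los_964 stood apart on the first principal component of the log2 CPM (counts scaled to the library size), at 65.7 against -38.0 to 13.6 for the other 5 libraries. The losartan rats also resembled each other less than they resembled the vehicle rats. The mean correlation of a losartan library with the other 2 losartan libraries was 0.942 to 0.951, against 0.952 to 0.964 with the vehicle libraries, and Los_925 correlated best with Veh_924 (r = 0.972 across genes, which are not replicates). Mitochondrial transcripts took 7.495 ± 2.46% of the counts with losartan and 6.58 ± 0.95% with vehicle (SD, exact permutation test, two-sided, p = 0.7, where 0.1 is the smallest possible p for 3 against 3), and without Los_965 the difference was -0.34 percentage points.

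No gene was called as different between losartan and vehicle lungs. With edgeR's quasi-likelihood test on the read counts, 0 of 15156 genes (0%) had a Benjamini-Hochberg adjusted p under 0.05, and 250 genes (1.65%) had an unadjusted p under 0.05, 104 higher (0.686%) and 146 lower (0.963%) with losartan. The adjusted p was 0.9999 for all genes except LOC102556337 (0.111) and LOC100911372 (0.272), so the genes described below are given by their values, and none of their differences passed the test. With single libraries left out, edgeR called 1 gene, RGD1359290, without Los_925 (log2 change -2.73, adjusted p = 0.0108) and LOC102556337 without Veh_924 (adjusted p = 0.0368), and 0 genes in the other 4 fits. The 3 losartan libraries all lay above the 3 vehicle libraries for 297 genes (1.96%) and below them for 548 genes (3.62%). Without Los_925, 846 genes had an unadjusted p under 0.05, and without Los_964, 502 genes did. DESeq2 called 6 of 18325 genes (0.0327%), 3 higher and 3 lower with losartan.

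The precision of the fold changes depended on the level of the gene. The 95% interval of the fold change lay within 2-fold in both directions for 9873 of the 15156 genes (65.1%) and within 1.5-fold for 5287 (34.9%). Among 7648 genes with a mean of at least 10 FPKM, 89.2% had an interval within 2-fold, against 50.1% of 6029 genes at 1 to 10 FPKM and 2.10% of 1479 genes below 1 FPKM. The median log2 fold change over all genes was 0.01, and 475 genes (3.13%) had a fitted change of more than 2-fold.

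**Figure D1:**
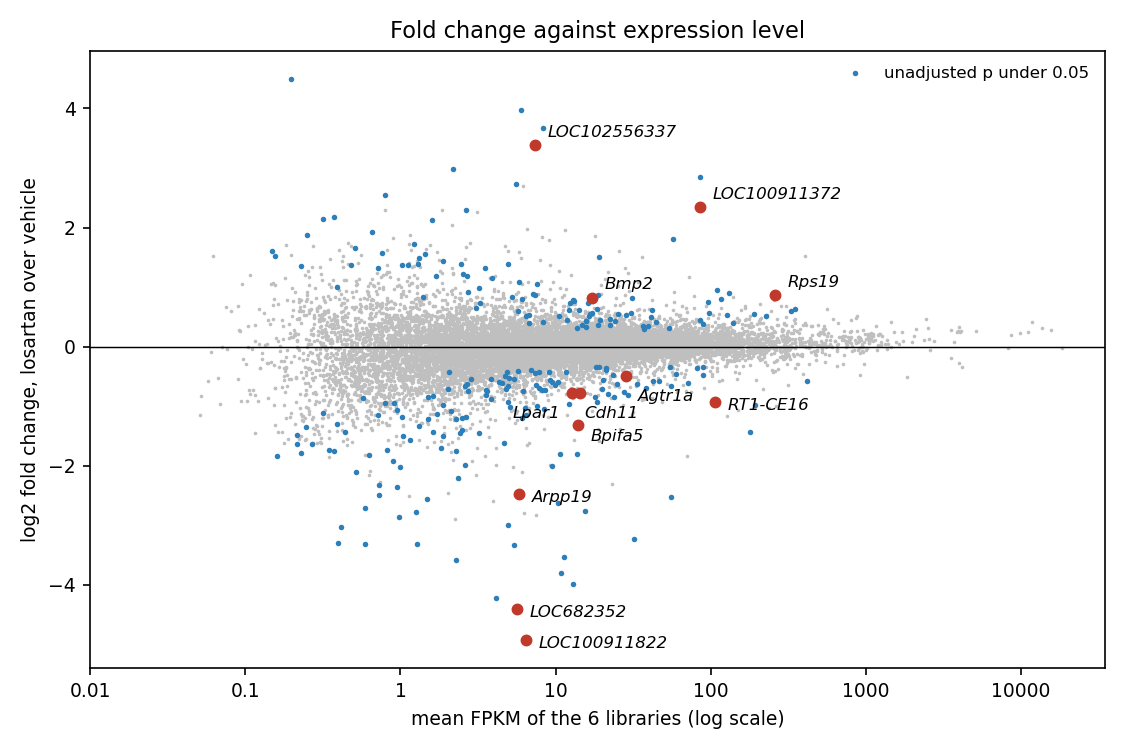
Log2 fold change of losartan over vehicle (vertical axis) against the mean FPKM of the 6 libraries (horizontal axis, log scale) for each of 15156 genes tested, with the 250 genes at an unadjusted p under 0.05 in blue and 12 genes of the text in red. Most genes above 10 FPKM lie close to 0, and the largest fitted changes belong to genes of lower level.

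The receptor that losartan blocks was among the genes with the smallest p. Agtr1a (chromosome 17, 37218834 to 37270540 in the coordinates of the deposited tables) had 23.98, 22.2 and 23.2 FPKM in Los_925, Los_964 and Los_965, against 31.1, 34.7 and 35.1 FPKM in Veh_923, Veh_924 and Veh_963. All 3 losartan lungs were below all 3 vehicle lungs, and the spread inside each group was small. Its log2 fold change was -0.49 (SE 0.13, 95% interval -0.78 to -0.20), rank 20 of all genes by p (adjusted p = 0.9999 in edgeR and 0.917 in DESeq2). The difference was -0.52 between the animals numbered 92 and -0.53 between those numbered 96, and it was -0.54 to -0.45 when each library was left out in turn.

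The losartan lungs were also below every other library of the series for Agtr1a, which had 24.2 to 29.5 FPKM in the AngII lungs and 26.1 to 35.1 FPKM in the TRV023 lungs, each from its own deposited table. The margin below the AngII lungs was small (23.98 FPKM in Los_925 against 24.16 FPKM in Ang2_922). The AngII lungs were themselves all below the vehicle lungs, at 31.1 to 35.1 FPKM, and the TRV023 lungs overlapped the vehicle lungs. A level below vehicle was therefore not particular to losartan. Of 15662 genes tested with all 12 libraries, 40 (0.255%) had all 3 losartan libraries below the other 9 and 29 (0.185%) had them above. In the direct contrasts Agtr1a was at -0.31 (SE 0.15) against AngII (edgeR adjusted p = 0.556) and at -0.37 (SE 0.15) against TRV023 (adjusted p = 0.998). In a piece of whole lung, fewer cells of a type and less RNA in each cell cannot be told apart.

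**Figure D2:**
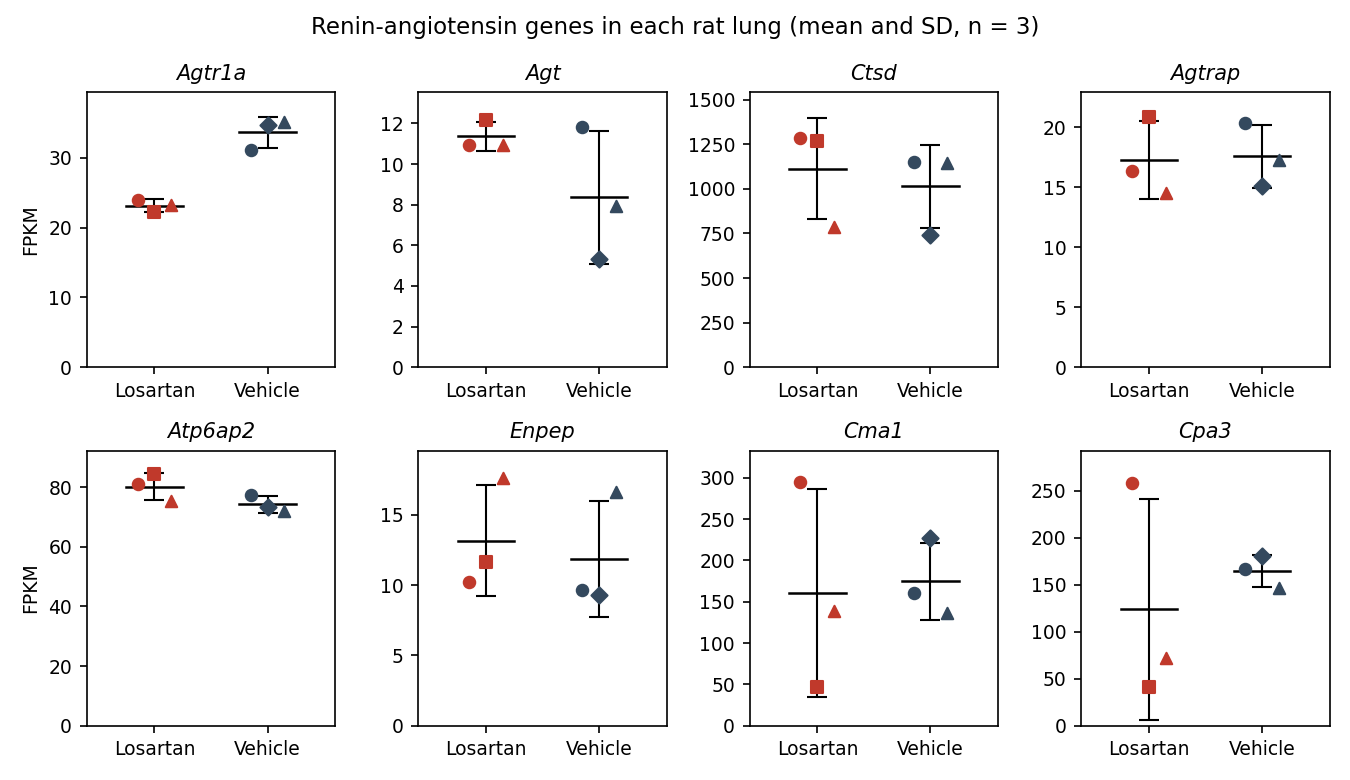
FPKM of 8 renin-angiotensin genes in each lung, with losartan (red, left) and vehicle (dark blue, right), and with bars for the mean and SD of 3 rats in each panel. Agtr1a is the gene of the 8 whose groups do not overlap, at 22.2 to 23.98 FPKM with losartan against 31.1 to 35.1 FPKM with vehicle, whereas Cma1 and Cpa3 are spread widely among the losartan rats.

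Of the 24 renin-angiotensin genes listed, 20 were tested and Agtr1a was the 1 member at an unadjusted p under 0.05. The list had 10 positive and 10 negative changes with a median of -0.02. Agtr1b (the second rodent AT1R gene) and Agtr2 (the type 2 receptor) had at most 0.251 FPKM in any of the 6 lungs and were too weak to test, and Ace and Mrgprd were not analysed here. Agt, the precursor of AngII, had 10.9, 12.2 and 10.96 FPKM with losartan against 11.8, 5.31 and 7.93 FPKM with vehicle. Its fitted log2 change was 0.50 (SE 0.29), and Veh_923 lay within the range of the losartan lungs. Enpep, an aminopeptidase that degrades AngII, had 10.2, 11.6 and 17.6 FPKM with losartan against 9.66, 9.30 and 16.6 FPKM with vehicle, and the groups overlapped. Agtrap, which binds AT1R and promotes its internalization, was at 0.04 (SE 0.21) on the log2 scale, and Atp6ap2, an accessory subunit of the vacuolar proton pump, was at 0.17 (SE 0.14). Anpep, an aminopeptidase that trims angiotensin peptides, was at 0.17 (SE 0.31). The bradykinin receptor gene Bdkrb1 was at -0.40 (SE 0.70) and Bdkrb2 was at -0.12 (SE 0.41). The log2 change of the other peptidases of the list, Prep, Nln, Thop1, Prcp, Rnpep, Mme and Lnpep, lay between -0.15 and 0.05. Mas1, the receptor for the shorter peptide angiotensin-(1-7), had at most 0.728 FPKM in any lung. Cathepsins that can process angiotensinogen were at 0.19 (SE 0.27) for Ctsd and 1.01 (SE 0.77) for Ctsg, which had at most 2.11 FPKM.

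The mast cell proteases that can process angiotensin varied more among the losartan rats than between the groups. Cma1 (chymase) had 295, 46.6 and 138 FPKM with losartan against 161, 227 and 137 FPKM with vehicle. Cpa3 (mast cell carboxypeptidase) had 259, 41.1 and 72.5 FPKM with losartan against 166, 180 and 147 FPKM with vehicle. Los_925 was the highest and Los_964 the lowest of all 6 lungs for both. Over the 16 tested mast cell and basophil markers the summed level was 689 to 2068 FPKM with losartan and 1153 to 1618 FPKM with vehicle, and the median log2 change was 0.51 between the animals numbered 92 and -0.69 between those numbered 96. Gata2, a transcription factor of mast cells that endothelial cells also express, was the member with an unadjusted p under 0.05, at 0.57 (SE 0.23).

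The genes taken as higher with losartan are described one by one, and none passed the test. Bmp2, a ligand of the bone morphogenetic protein receptors whose pathway is mutated in heritable pulmonary arterial hypertension, had 25.7, 20.8 and 19.1 FPKM with losartan against 12.7, 15.3 and 10.4 FPKM with vehicle, a log2 change of 0.82 (SE 0.21, edgeR adjusted p = 0.9999). The lowest losartan lung was above the highest vehicle lung. Il1a, an interleukin released by injured cells, had 8.32, 9.23 and 10.45 FPKM with losartan against 4.21, 6.27 and 5.502 FPKM with vehicle (log2 change 0.87, SE 0.24). Bdnf, a neurotrophin, had 7.25, 12.1 and 8.18 FPKM with losartan against 5.16, 4.77 and 5.72 FPKM with vehicle (0.89, SE 0.26). The 3 genes were taken for groups that do not overlap, and Bdnf was highest in Los_964.

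Csgalnact1, which starts chondroitin sulfate chains, had 16.1, 16.9 and 15.7 FPKM with losartan against 11.2, 7.77 and 10.7 FPKM with vehicle (log2 change 0.77, SE 0.18). Hpse, the heparanase that cuts heparan sulfate, had 18.4, 19.7 and 18.7 FPKM with losartan against 13.7, 12.5 and 15.4 FPKM with vehicle (0.51, SE 0.15). The losartan lungs were close to each other for both enzymes, and all lay above the vehicle lungs. The other genes taken by the same rule were Cdc42bpg, a kinase acting downstream of Cdc42 (0.53, SE 0.15), Capn5, a calpain protease (0.45, SE 0.14), Nova2, an RNA-binding regulator of splicing (1.05, SE 0.31), Pp2d1 (0.99, SE 0.28), Mb21d2 (0.54, SE 0.16), Hist1h4b, a histone H4 gene (1.499, SE 0.37), and the ribosomal protein gene Rps19 (0.87, SE 0.16). Reads of histone and ribosomal protein genes can be shared with near-identical copies, so these last 2 changes are uncertain. Against the other 9 libraries of the series, all 3 losartan lungs were highest for Csgalnact1, Bmp2, Cdc42bpg and Mb21d2, and for Bmp2 the margin over the TRV023 lungs was small (19.10 to 25.73 FPKM against 18.75 to 19.06 FPKM).

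**Figure D3:**
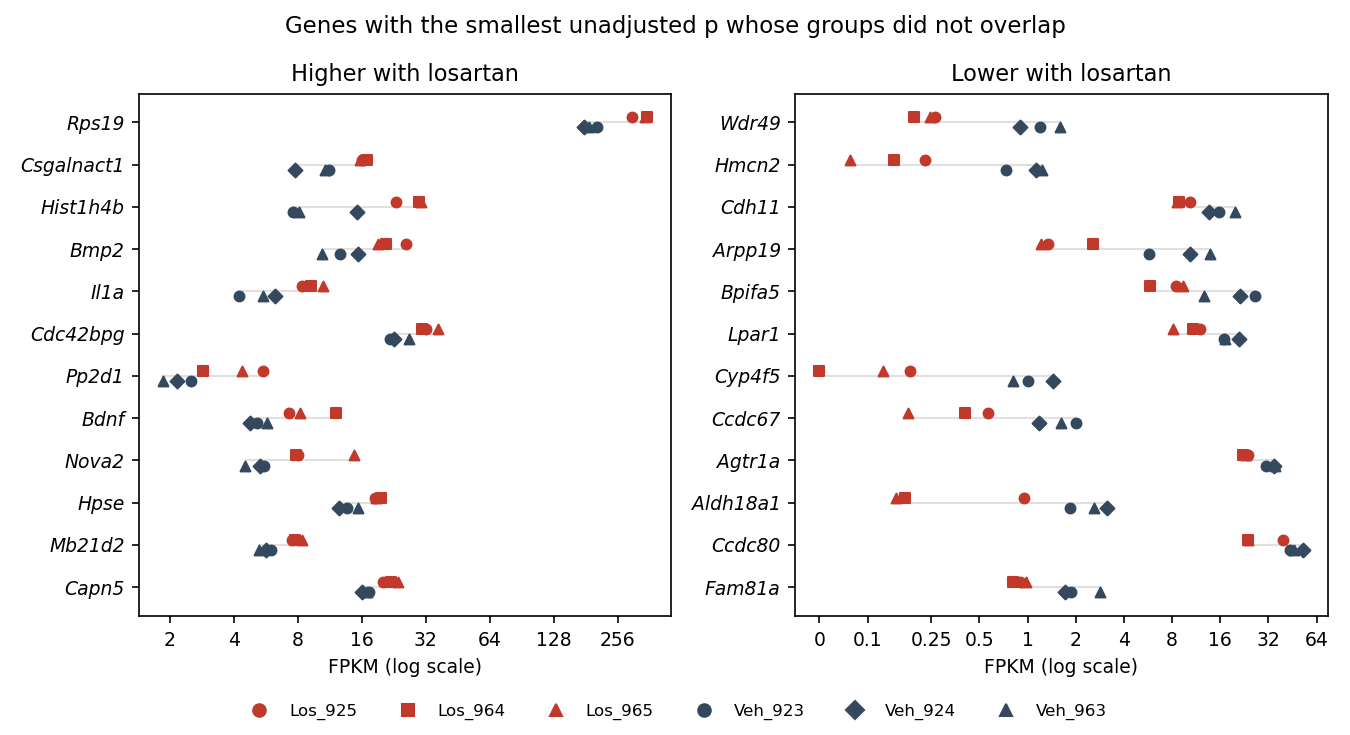
FPKM (log scale) in each lung for the 12 higher (left) and 12 lower (right) genes with the smallest unadjusted p among named genes with a mean of at least 1 FPKM in at least 1 of the 2 groups and no overlap between them, with losartan in red above vehicle in dark blue on each row. Los_964 had 0 FPKM of Cyp4f5 and is drawn at the left edge of the axis; the genes were chosen for not overlapping, so the separation itself is a description.

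The genes taken as lower with losartan did not pass the test either. Cdh11, an adhesion molecule of fibroblasts, had 10.4, 8.79 and 8.57 FPKM with losartan against 15.7, 13.7 and 19.7 FPKM with vehicle, a log2 change of -0.78 (SE 0.17, edgeR adjusted p = 0.9999). Lpar1, a lysophosphatidic acid receptor that promotes lung fibrosis in mice, had 11.9, 10.9 and 8.09 FPKM with losartan against 17.0, 21.0 and 17.2 FPKM with vehicle (-0.79, SE 0.18). Ccdc80, a secreted matrix protein, had 39.4, 23.8 and 23.9 FPKM with losartan against 43.9, 52.9 and 46.5 FPKM with vehicle (-0.69, SE 0.19). Los_925 was the losartan lung closest to the vehicle lungs for all 3. Lpar1 was below the vehicle lungs with the agonists too, at 10.9 to 14.8 FPKM with AngII and 11.3 to 14.3 FPKM with TRV023. With TRV023, Cdh11 reached 20.8 FPKM and Ccdc80 reached 71.5 FPKM.

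Bpifa5, of a family of proteins secreted by airway epithelium, had 8.51, 5.83 and 9.30 FPKM with losartan against 26.5, 21.2 and 12.7 FPKM with vehicle, a log2 change of -1.31 (SE 0.30, adjusted p = 0.9999 in edgeR and 0.0925 in DESeq2). All other lungs of the series were above the losartan lungs, at 20.8 to 22.3 FPKM with AngII and 16.8 to 33.6 FPKM with TRV023. Directly, losartan was at -1.57 (SE 0.31) against AngII (edgeR adjusted p = 0.299) and -1.50 (SE 0.31) against TRV023 (adjusted p = 0.787). Ccdc67, which takes part in building the many centrioles of ciliated cells, had 0.566, 0.404 and 0.178 FPKM with losartan against 2.01, 1.18 and 1.62 FPKM with vehicle (-2.02, SE 0.50). The remaining lower genes of the rule were Arpp19, which encodes an inhibitor of protein phosphatase 2A (-2.47, SE 0.56), Aldh18a1, an enzyme of proline synthesis (-2.56, SE 0.68), Cyp4f5, a cytochrome P450 (-3.31, SE 0.81), Hmcn2, a hemicentin of the extracellular matrix (-2.70, SE 0.57), Wdr49 (-2.33, SE 0.47) and Fam81a (-1.21, SE 0.34). Apart from Arpp19 these had at most 3.13 FPKM in any lung, and like Ccdc67 they met the minimum of 1 FPKM only through the vehicle mean, so a difference was built into their choice. The Arpp19 row spans positions 118444306 to 118444644 of chromosome 8, and its gene length of 339 bases fills this span without an intron. Whether its reads are shared with another copy was not tested, so its level is uncertain. Cyp4f5 and Arpp19 were also below all vehicle lungs with the agonists. Cyp4f5 had at most 0.386 FPKM with AngII and 0.211 FPKM with TRV023, and Arpp19 at most 1.89 and 1.76 FPKM.

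The 6 genes that DESeq2 called were LOC102556337, LOC100911372 and Rps19, higher with losartan, and LOC100911822, LOC682352 and Gstm5, lower with losartan. LOC102556337 had 14.9, 13.7 and 11.8 FPKM with losartan against 1.02, 2.02 and 0.984 FPKM with vehicle, and LOC100911372 had 127, 153 and 146 FPKM against 17.9, 37.8 and 32.1 FPKM. Both were also at high and low levels inside the other drug groups. LOC102556337 had 0.904, 17.4 and 15.03 FPKM in the 3 AngII lungs and 1.19, 10.6 and 2.83 FPKM in the 3 TRV023 lungs, and LOC100911372 had 37.1, 36.8 and 130 FPKM with AngII and 23.0, 199 and 122 FPKM with TRV023. DESeq2 called these 2 genes in 6 of 6 fits that left out a library, LOC100911822 in 4, Rps19 and LOC682352 in 2, and Gstm5 in 1. LOC100911822 had 0.379, 0.218 and 0.578 FPKM with losartan against 0.690, 18.8 and 18.1 FPKM with vehicle, and LOC682352 had 1.04, 0 and 0.398 FPKM against 6.86, 2.14 and 23.3 FPKM. Gstm5, a glutathione transferase, had 3, 5 and 8 reads with losartan against 133, 4 and 223 reads with vehicle and did not pass edgeR's filter. One vehicle lung lay close to the losartan lungs for LOC100911822 and Gstm5. RT1-CE16, a class I histocompatibility gene, showed the same kind of spread, with 3.76, 198 and 3.73 FPKM with losartan against 108, 100.2 and 230 FPKM with vehicle (edgeR adjusted p = 0.9999). Rows of this kind can share reads with near-identical copies, and their levels are uncertain.

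Genes of the extracellular matrix and of fibroblasts had mostly negative changes with losartan, and none was called with all 6 libraries. Without Los_925, DESeq2 but not edgeR called several as lower, such as Col1a1 (-0.64), Col3a1 (-0.70) and Col6a3 (-1.33). Of 36 collagens and matrix proteins, 29 had a negative change, against 48.7% of all genes, and the median was -0.24. At an unadjusted p under 0.05, 1 was higher and 4 were lower, where 0.686% and 0.963% of all genes were. Vcan, a large proteoglycan, had 5.92, 5.77 and 3.21 FPKM with losartan against 12.5, 11.8 and 6.55 FPKM with vehicle (log2 change -0.99, SE 0.31). Spp1 (osteopontin), a matrix protein also made by macrophages, had 147, 179 and 50.9 FPKM with losartan against 284, 267 and 230 FPKM with vehicle (-0.98, SE 0.41). Col14a1, a collagen of fibroblasts, was at -1.15 (SE 0.35), and Col4a3, a basement membrane collagen, was at 0.51 (SE 0.21). Of the most abundant members, Sparc was at 0.09 (SE 0.19) and Bgn at -0.30 (SE 0.22).

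Of 21 elastic fibre and crosslinking genes, 15 were negative with a median of -0.23, and Mfap2 and Fbln1 were the 2 at an unadjusted p under 0.05. Mfap2, a microfibril protein, had 15.5, 16.4 and 16.3 FPKM with losartan against 26.1, 27.5 and 20.4 FPKM with vehicle (-0.56, SE 0.18). Fbln1, a fibulin, had 95.3, 63.3 and 63.1 FPKM with losartan against 99.2, 106 and 112 FPKM with vehicle (-0.48, SE 0.16). The microfibril gene Fbn1 was at -0.44 (SE 0.21), whereas Eln, elastin itself, was at 0.10 (SE 0.23). Fbn1 was also below every vehicle lung (36.7 to 46.2 FPKM) with the agonists, at 24.3 to 30.4 FPKM with AngII and 27.3 to 33.0 FPKM with TRV023. Fbln1 had 59.2 to 110 FPKM with AngII and 58.5 to 82.2 FPKM with TRV023. Mfap2 had 27.3 to 34.0 FPKM with AngII and 15.7 to 27.8 FPKM with TRV023. Of 20 fibroblast markers 18 were negative, with a median of -0.26 and 0 higher and 2 lower at an unadjusted p under 0.05.

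These matrix differences were not alike in the 2 number series, where Los_925 was the only losartan lung or Veh_963 the only vehicle lung. The median of the collagens and matrix proteins was 0.04 between the animals numbered 92 and -0.50 between those numbered 96, and the fibroblast median was 0.00 and -0.62. Smooth muscle and pericyte markers followed the same course, with 19 of 23 negative and a median of -0.23 over all 6 lungs, but 0.04 between the animals numbered 92 and -0.84 between those numbered 96. Tagln, an actin-binding protein of smooth muscle, had 425, 678 and 595 FPKM with losartan against 388, 561 and 1273 FPKM with vehicle, so that Veh_963 alone was above the losartan lungs. The summed level of the 23 smooth muscle markers was 1743 to 2469 FPKM with losartan and 1501 to 4649 FPKM with vehicle, and without Veh_963 the list median was 0.33. The part of vessel or airway wall in each piece of lung was not tested. In the TGF-beta and BMP pathway, 22 of 37 genes were positive with a median of 0.07, and the 2 at an unadjusted p under 0.05 were Bmp2 and Smad6, an inhibitory Smad induced by BMP signals. Smad6 had 102, 175 and 162 FPKM with losartan against 77.1, 112 and 75.2 FPKM with vehicle (0.80, SE 0.28), and its change was 0.06 between the animals numbered 92 and 1.26 between those numbered 96. Bmp4, a further BMP ligand, had 67.9, 66.6 and 80.9 FPKM with losartan against 65.4, 60.6 and 50.7 FPKM with vehicle (0.34, SE 0.16), without overlap.

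**Figure D4:**
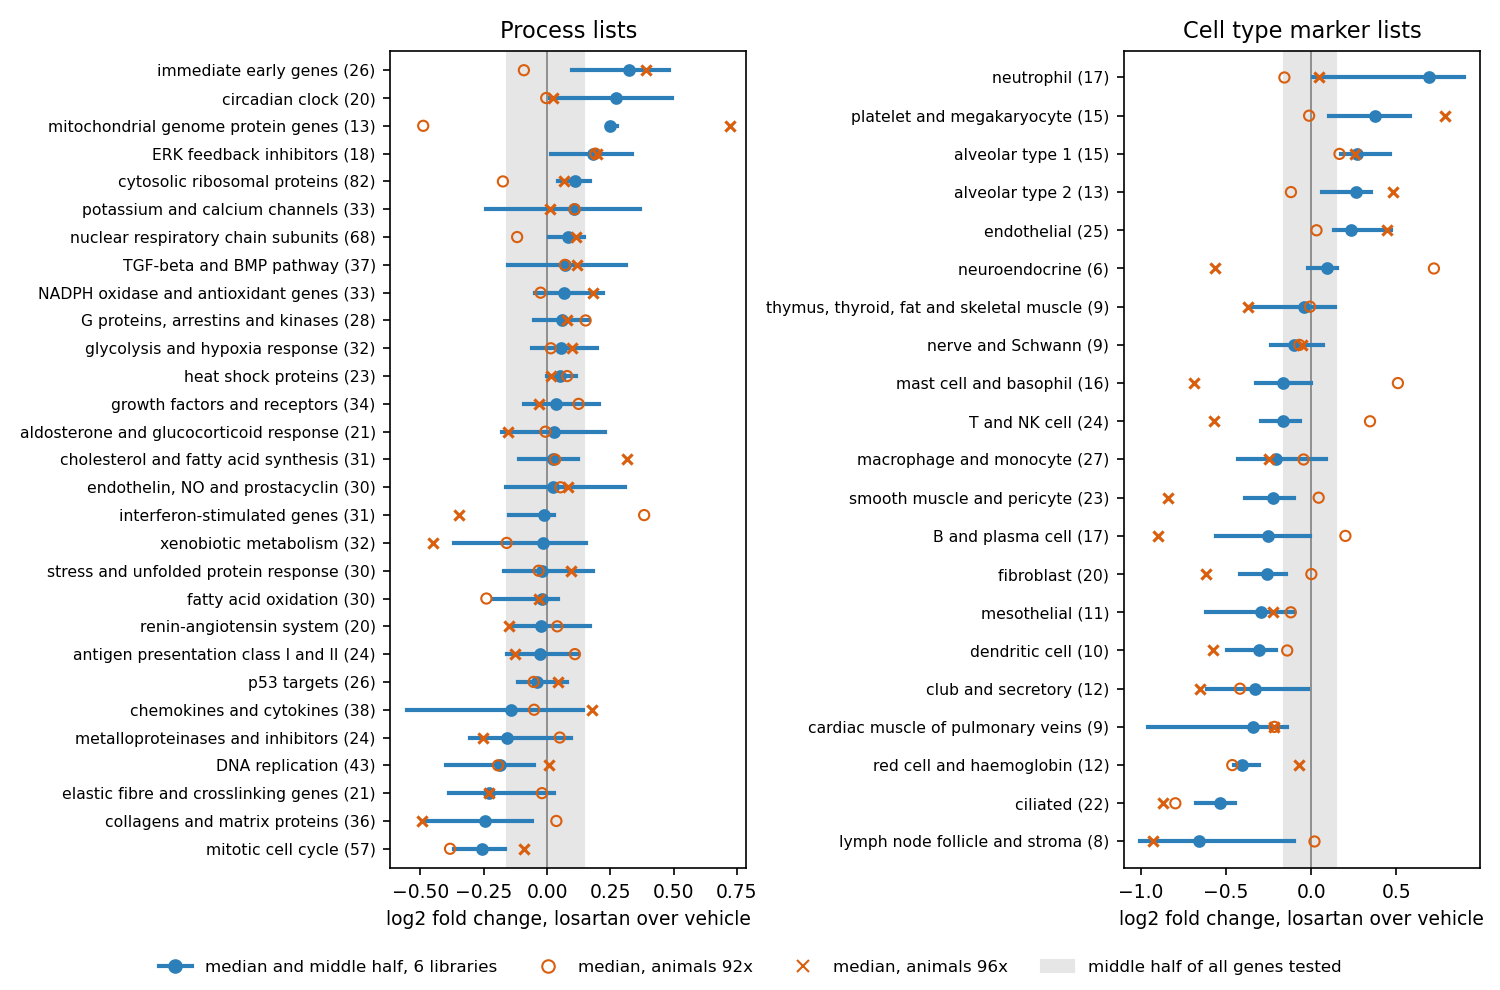
Median log2 fold change of losartan over vehicle for 50 gene lists with at least 5 tested members (blue points, with the interquartile range of the members as a line and the number of tested genes in brackets), beside the same median computed within the animals numbered 92 (open circles) and 96 (crosses). The grey band is the interquartile range of all genes tested. Of the 50 medians, 47 lie between -0.5 and 0.5, and 23 have 1 sign in all 3 calculations. The 3 calculations share libraries, and whether 23 exceeds the number for unrelated signs was not tested.

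Markers of the gas exchange surface had mostly positive changes with losartan. All 15 alveolar type 1 cell genes had a positive change, against 51.3% of all genes, with a median of 0.27. Of these, 3 had losartan lungs all above the vehicle lungs, as 1.96% of all genes did, and 0 of the 15 had an unadjusted p under 0.05. Ager, a receptor abundant on these flat cells, had 1529, 1708 and 1716 FPKM with losartan against 1296, 1162 and 1407 FPKM with vehicle (log2 change 0.42, SE 0.19). Hopx, a transcriptional cofactor of the same cells, had 813, 1320 and 885 FPKM with losartan against 792, 669 and 777 FPKM with vehicle (0.51, SE 0.26), and Emp2, a membrane protein of caveolae, had 312, 285 and 328 FPKM against 270, 261 and 266 FPKM (0.27, SE 0.15). The median was 0.17 and 0.26 in the 2 number series and 0.20 to 0.33 when each library was left out in turn. The summed level of the 15 genes was 5145 to 5588 FPKM with losartan and 4308 to 4454 FPKM with vehicle.

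Of 25 endothelial markers 22 were positive, with a median of 0.23 and 2 higher at an unadjusted p under 0.05. Egfl7, a secreted factor of endothelium, had 339, 456 and 460 FPKM with losartan against 262, 376 and 213 FPKM with vehicle (0.63, SE 0.26), and Plvap, a protein of endothelial fenestrae, had 301, 456 and 412 FPKM against 259, 339 and 214 FPKM (0.60, SE 0.26). Veh_924 lay among the losartan lungs for both genes. The endothelial median was 0.03 between the animals numbered 92 and 0.44 between those numbered 96. Alveolar type 2 markers had 11 of 13 positive and a median of 0.27, with the series at -0.12 and 0.48. Nkx2-1, the transcription factor that specifies lung epithelium, was their member at an unadjusted p under 0.05, at 90.4, 113 and 137 FPKM with losartan against 101, 71.0 and 69.3 FPKM with vehicle (0.56, SE 0.23).

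Airway markers had mostly negative changes with losartan, and both airway lists overlapped between the groups. Of 22 ciliated cell genes 21 had a negative change, with a median of -0.53 and 0 higher and 3 lower at an unadjusted p under 0.05 (Ccdc113, Capsl and Ccdc40). Capsl had 5.22, 7.24 and 6.33 FPKM with losartan against 10.1, 8.86 and 13.7 FPKM with vehicle (log2 change -0.73, SE 0.30), and Ccdc40, an assembly factor of ciliary dynein arms, had 1.61, 2.07 and 2.22 FPKM against 2.79, 2.85 and 4.13 FPKM (-0.67, SE 0.28). The ciliated median was -0.80 and -0.87 in the 2 number series, and it was -0.80 to -0.14 when each library was left out. By the mean level of the list, Veh_963 was the highest and Los_925 the lowest lung. Club and secretory markers had 9 of 12 negative and a median of -0.33, which was -0.06 without Veh_963 and -0.70 without Los_964, and 0 of 12 had an unadjusted p under 0.05. Scgb3a2, a secretoglobin of club cells, had 321, 858 and 689 FPKM with losartan against 828, 621 and 983 FPKM with vehicle.

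Genes that respond to receptor signaling were examined next, since AT1R acts through G proteins and β-arrestins to the kinase ERK. Of 28 G protein, arrestin and kinase genes that couple receptors to the cell, 20 were positive with a median of 0.06 and 0 had an unadjusted p under 0.05. Grk4, a receptor kinase, was the member with the smallest p, at 5.96, 6.65 and 7.52 FPKM with losartan against 5.19, 4.97 and 5.28 FPKM with vehicle (0.44, SE 0.22). Of 18 inhibitors and targets that feed back on ERK, 14 were positive, the median was 0.18, and again 0 had an unadjusted p under 0.05. Spry2, a Sprouty inhibitor of ERK signaling, had 30.3, 31.2 and 28.9 FPKM with losartan against 27.5, 23.8 and 24.6 FPKM with vehicle (0.31, SE 0.14). These groups did not overlap, but Spry2 was higher still with the agonist TRV023, at 34.7 to 39.2 FPKM. With AngII it had 19.6 to 29.3 FPKM. The mean level of the ERK feedback list was higher in each losartan lung than in any vehicle lung. Such a separation, in either direction, held for 3 of the 50 lists (the ERK list, alveolar type 1 markers, also higher, and antigen presentation genes, lower). In mean log2 CPM centred on the 6 libraries the margins were small. The ERK list had 0.050 in Los_965 against 0.025 in Veh_924, and alveolar type 1 markers -0.049 in Los_964 against -0.080 in Veh_924. Antigen presentation genes had 0.0463 in Los_964 against 0.0465 in Veh_923. The summed FPKM of the ERK and antigen presentation lists overlapped between the groups.

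Immediate early genes had 22 of 26 positive changes and a median of 0.32, and this rested on Los_964. Klf2, a flow-responsive transcription factor of endothelium, had 107, 244 and 154 FPKM with losartan against 70.2, 91.05 and 125 FPKM with vehicle (0.90, SE 0.36) and was the member at an unadjusted p under 0.05. Jund had 354, 598 and 394 FPKM with losartan against 334, 424 and 325 FPKM with vehicle. Without Los_964 the median of the list was -0.01. Dusp1, a phosphatase of MAP kinases, had 102, 309 and 113 FPKM with losartan against 55.6, 60.3 and 198 FPKM with vehicle. It had 65.9 to 131 FPKM with AngII and 171 to 297 FPKM with TRV023. Of 21 genes of the aldosterone and glucocorticoid response, Sgk1, a kinase induced by both hormones, was the 1 gene at an unadjusted p under 0.05, with 137, 183 and 126 FPKM with losartan against 92.3, 116 and 115 FPKM with vehicle (0.53, SE 0.22).

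**Figure D5:**
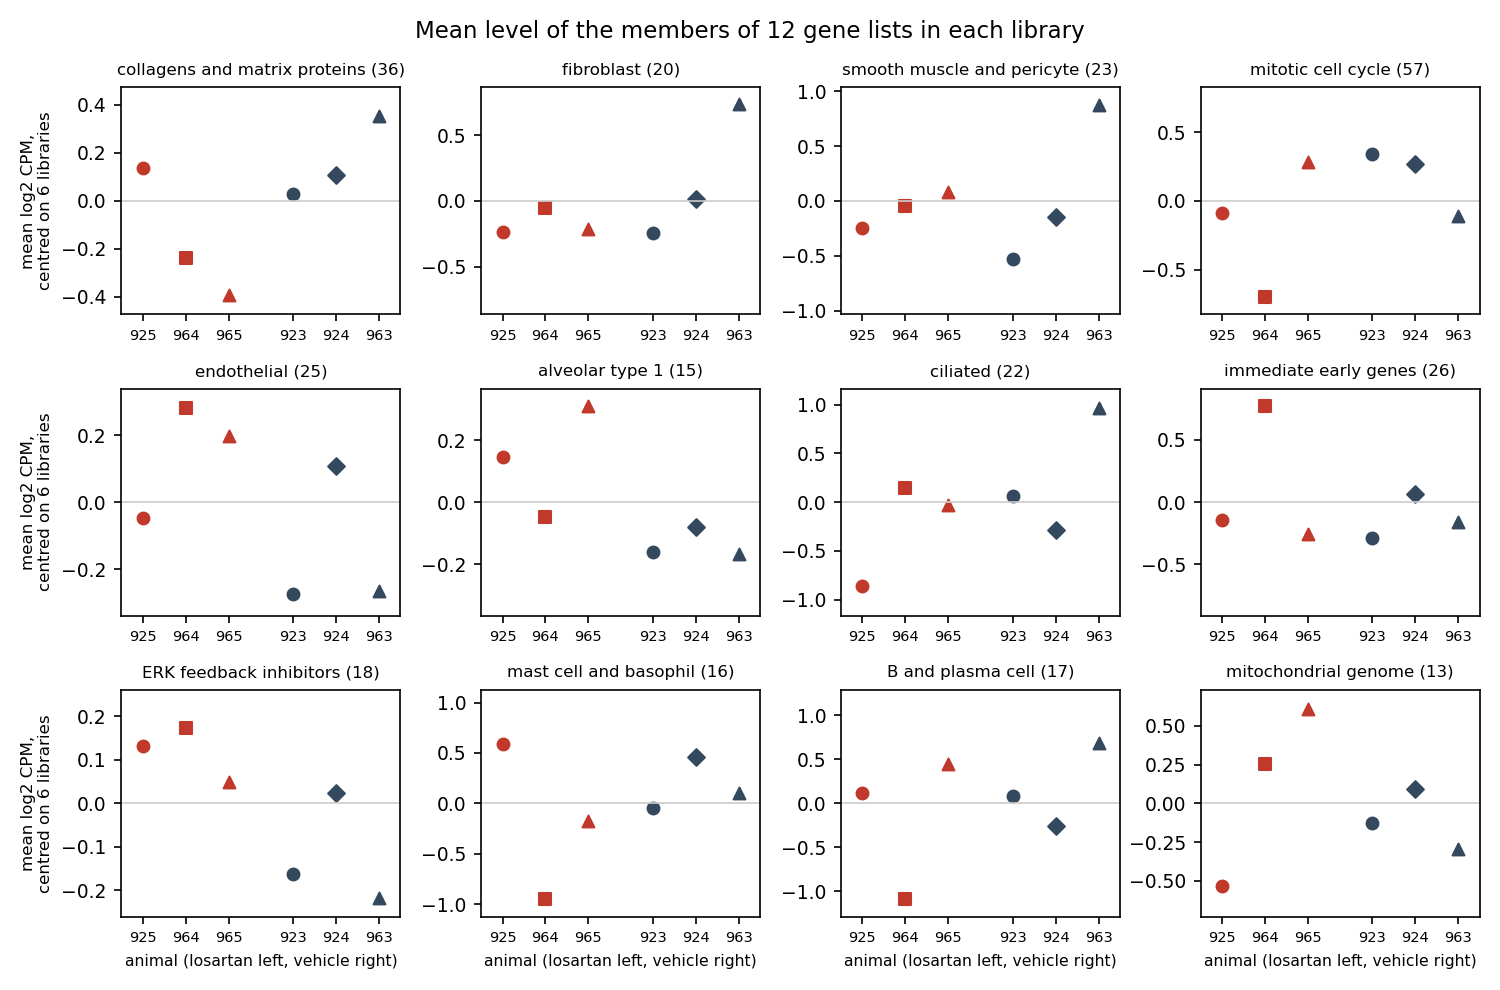
Mean log2 CPM of the members of 12 lists in each lung (vertical axis, centred on the mean of the 6 libraries), with the losartan animals left (red) and the vehicle animals right (dark blue) and the number of genes in brackets. Alveolar type 1 markers and ERK feedback inhibitors are higher in every losartan lung, whereas Los_964 is the lowest lung for mitotic, mast cell and B cell genes and Veh_963 the highest for smooth muscle, fibroblast and ciliated cell genes.

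Vascular tone and growth genes had medians near 0. Of 30 genes of the endothelin, nitric oxide and prostacyclin pathways and 34 vascular growth factors and receptors, 0 had an unadjusted p under 0.05, and the medians were 0.02 and 0.04. Nos3, the endothelial nitric oxide synthase, had 13.8, 25 and 14.4 FPKM with losartan against 12.8, 14.6 and 12.8 FPKM with vehicle (0.48, SE 0.28), and its change was 0.07 without Los_964. Among 33 potassium and calcium channels, 1 gene had an unadjusted p under 0.05. That gene was Trpv4, a calcium-permeable channel of lung endothelium and muscle, at 6.06, 8.57 and 5.82 FPKM with losartan against 4.60, 5.2 and 4.33 FPKM with vehicle (0.60, SE 0.24). Kcnk3, a potassium channel mutated in some patients with pulmonary arterial hypertension, had 8.88, 10.1 and 13.3 FPKM with losartan against 6.30, 6.92 and 9.93 FPKM with vehicle (0.53, SE 0.27). Mmp2, a gelatinase, had 289, 205 and 115 FPKM with losartan against 246, 272 and 255 FPKM with vehicle (-0.30, SE 0.28), with a change of -0.02 without Los_965. Its inhibitor Timp1 had 202, 306 and 117 FPKM against 375, 345 and 169 FPKM (-0.43, SE 0.41), with a change of -0.91 without Los_964 and -0.14 without Los_965.

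Proliferation genes had mostly small negative changes with losartan. Of 57 mitotic genes 54 had a negative change, with a median of -0.26, and 1 gene, Cenpf, a kinetochore protein, was lower at an unadjusted p under 0.05 (1.81, 1.38 and 2.03 FPKM with losartan against 2.50, 2.46 and 2.23 FPKM with vehicle). Mki67, the proliferation marker Ki-67, had 6.34, 2.34 and 5.97 FPKM with losartan against 6.94, 8.37 and 4.56 FPKM with vehicle (-0.42, SE 0.34, edgeR adjusted p = 0.9999). Los_964 was the lowest lung for both, and without it the mitotic median was -0.06. Of 43 DNA replication genes 35 were negative, with a median of -0.19 and 0 at an unadjusted p under 0.05, and the median was -0.07 without Los_964 and 0.01 between the animals numbered 96. In the direct contrast with TRV023, mitotic genes had a median of 0.79 higher with losartan, and 31 of 57 were higher at an unadjusted p under 0.05, where 2.27% of all genes were, although 0 were called. Against AngII the mitotic median was 0.06 and 0 of 57 were higher or lower at that level.

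Several immune cell lists differed in direction between the number series or with single libraries. Macrophage markers had a median of -0.04 between the animals numbered 92, small beside -0.25 between those numbered 96. Dendritic cell markers had -0.14 and -0.57. Macrophage and monocyte markers had 17 of 27 negative changes and a median of -0.21 (-0.31 to -0.0042 with each library left out). The 2 at an unadjusted p under 0.05 were Vcan and Spp1, which are also counted among the matrix proteins above. Apoe, among the most abundant of them, had 1411, 1380 and 1053 FPKM with losartan against 899, 752 and 1788 FPKM with vehicle. B and plasma cell markers had a median of 0.20 between the animals numbered 92 and -0.90 between those numbered 96, and T and NK cell markers 0.35 and -0.57. Cxcl13, the chemokine of B cell follicles, had 5.59, 0.751 and 0.615 FPKM with losartan against 2.45, 10.6 and 16.4 FPKM with vehicle (-2.10, SE 0.92), and Los_925 was within the vehicle range. Neutrophil markers had a median of 0.69, which was -0.46 without Los_964. S100a9, a calcium-binding protein of neutrophils, had 138, 408 and 53.9 FPKM with losartan against 88.6, 215 and 97.9 FPKM with vehicle. Of 10 dendritic cell markers 8 were negative with a median of -0.30. Itgae, an integrin of these cells and of resident T cells, had 4.901, 2.03 and 3.65 FPKM with losartan against 5.39, 5.26 and 5.79 FPKM with vehicle (-0.61, SE 0.27). It was also below every vehicle lung with the agonists, at 3.60 to 4.28 FPKM with AngII and 2.58 to 4.97 FPKM with TRV023. Among 24 antigen presentation genes the median was -0.03, and Tap2, a peptide transporter, had 11.7, 21.9 and 11.7 FPKM with losartan against 10.3, 8.03 and 10.4 FPKM with vehicle (0.74, SE 0.31). All 12 red cell genes were negative with a median of -0.41, which was 0.41 without Veh_924 and -0.97 without Los_965, at summed levels of 3972 to 9248 FPKM with losartan and 3694 to 15570 FPKM with vehicle.

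Metabolic and ribosomal gene lists had small medians. All 13 protein genes of the mitochondrial genome had a positive change with a median of 0.25, but the median was -0.01 without Los_965, -0.49 between the animals numbered 92 and 0.72 between those numbered 96. Mt-co1 (cytochrome oxidase subunit 1) had 11490, 16290 and 22950 FPKM with losartan against 14150, 17060 and 12560 FPKM with vehicle. Of 82 cytosolic ribosomal protein genes 71 were positive with a median of 0.11, and of 68 nuclear subunits of the respiratory chain 53 were positive with a median of 0.08. Without Los_964 these medians were -0.05 and -0.01, and between the animals numbered 92 they were -0.17 and -0.12. Acaa2, a thiolase of fatty acid oxidation, was the 1 gene of 30 in its list at an unadjusted p under 0.05, with 44.5, 36.4 and 29.8 FPKM with losartan against 63.9, 49.3 and 56.9 FPKM with vehicle (-0.57, SE 0.17).

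The genes that the study followed for AngII and TRV023 did not separate losartan from vehicle, apart from Arpp19. Gdf15, a stress-induced growth factor, had 35.0, 53.2 and 42.2 FPKM with losartan against 39.0, 33.5 and 29.9 FPKM with vehicle (0.42, SE 0.23). Trem2, a receptor of macrophages, had 49.8, 44.8 and 31.3 FPKM with losartan against 50.6, 24.5 and 39.4 FPKM with vehicle (0.19, SE 0.28). Cxcl14, a chemokine, had 140, 42.9 and 39.8 FPKM with losartan against 98.5, 59.0 and 40.7 FPKM with vehicle (0.17, SE 0.48), and the groups overlapped for all 3 genes. Arpp19 had 1.34, 2.57 and 1.21 FPKM with losartan against 5.77, 10.4 and 13.8 FPKM with vehicle, without overlap (edgeR adjusted p = 0.9999, DESeq2 adjusted p = 0.0835). These levels rest on 9, 15 and 8 reads with losartan against 39, 68 and 94 reads with vehicle. They belong to the row of 339 bases without an intron described above, whose level is uncertain. The agonist lungs were similarly low, with at most 1.89 FPKM with AngII and 1.76 FPKM with TRV023. Directly, losartan was at 0.22 (SE 0.598) against AngII and 0.26 (SE 0.595) against TRV023. For Arpp19 the vehicle lungs thus stood apart from every drug group, and the difference was not particular to losartan.

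Set directly against the agonists in a single edgeR fit of all 12 libraries, losartan gave 0 called genes of 15662 (0%) against AngII and 0 (0%) against TRV023. An unadjusted p under 0.05 was reached by 1437 genes (9.18%) against AngII, 703 higher (4.49%) and 734 lower (4.69%) with losartan, and by 713 genes (4.55%) against TRV023, 355 higher (2.27%) and 358 lower (2.29%). DESeq2 called 103 genes against AngII and 16 against TRV023. Against AngII, alveolar type 1 markers had a median of 0.46 with 6 of 15 higher at an unadjusted p under 0.05, endothelial markers 0.34 with 7 of 25 higher, and macrophage markers -0.54 with 9 of 27 lower. Against TRV023, alveolar type 1 markers had a median of 0.11 with 0 of 15 higher and 1 lower, endothelial markers 0.32 with 2 of 25 higher, and macrophage markers -0.46 with 8 of 27 lower and 1 higher. The median of the collagens and matrix proteins was -0.07 against AngII and -0.21 against TRV023. For the elastic fibre and crosslinking genes it was 0.05 and -0.01, and for fibroblast markers -0.08 and -0.19.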

How the data were processed

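The lung RNA libraries of 3 losartan and 3 vehicle MCT rats were compared, grouped by the treatment given in their labels. Per the study's methods, total RNA was sequenced by a company and the reads were aligned to the rat genome. The authors deposited read counts, which are unnormalized integers, and FPKM values, which scale each count to gene length and to the library's counted total, with a shorter length for 2034 genes. Not given in the sources used here were the aligner, the counter, the strand setting, the annotation and the genome build. Scaffold names begin with AABR06. The authors' scaled values, fold changes and p-values were not used. The losartan table lists 18367 genes, each with a read in at least 1 losartan library, so 496 genes are at 0 in all vehicle libraries and 0 genes are at 0 in all losartan libraries. A further 1320 genes are listed with another drug but not with losartan, with at most 40 summed vehicle reads, and were not analysed here. Some genes of the renin-angiotensin system are not reported here.

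Counts were tested in edgeR 4.0.16 (R 4.3.3) with filterByExpr, TMM normalization and the quasi-likelihood F test, with Benjamini-Hochberg adjustment over 15156 genes and a threshold of 0.05. No covariate was used. Direct contrasts with AngII and TRV023 used 15662 genes of all 12 libraries in 1 fit. P-values measure the spread among 3 rats per group. The log2 CPM had a prior count of 2. Of 51 gene lists, 50 had at least 5 tested members and are described by counts and medians, and a symbol on several rows was taken from the row with the highest mean FPKM. The members and lists were chosen with earlier results of these data known.

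The genes named were the listed renin-angiotensin genes, all DESeq2 calls, and the 12 higher and 12 lower genes with the smallest p that had a mean of at least 1 FPKM in at least 1 group, groups without overlap and a gene name rather than a clone or LOC number. They were also up to 4 members of each list with the smallest p and 2 with the highest FPKM, and the genes the study followed. Any other gene was named after its values were seen, such as Scgb1a1 as a tissue check. Alternatives were DESeq2 1.42.0, limma-voom and limma on log2(FPKM + 1) (limma 3.58.1), bias-adjusted deviances, RLE or library totals, no filter or at least 10 counts in every library, an adjusted p under 0.1, all 12 libraries in 1 fit, the number series as a covariate, and each library left out in turn. Scripts were tested on simulated data. Figures were drawn with matplotlib.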

Additional observations from a re-analysis of the deposited data

How the results depend on the processing

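DESeq2 called 6 genes between losartan and vehicle where edgeR called 0, and it called 103 against AngII and 16 against TRV023. With each library left out, edgeR called 0 to 1 genes between losartan and vehicle and 0 to 1 against AngII (1 without the library Ang2_922), whereas DESeq2 called 54 without Los_925, 19 without Los_964, 9 without Los_965, 9 without Veh_923, 22 without Veh_924 and 13 without Veh_963; the cause was not tested. The other alternatives called 0 genes. The sign of the log2 change turned for some weak differences. With the number series as a covariate, it was -0.0273 for Enpep, 0.0341 for Bdkrb1, -0.0152 for Prcp, 0.0265 for Cma1, -0.018 for Agtrap, -0.0185 for Lnpep and -0.0244 for Eln. With library totals, which move the median of all genes to -0.04, it was -0.0014 for Prcp, -0.0277 for Agtrap, -0.00577 for Mme and -0.0454 for Lnpep. With each library left out, it ranged from -0.0605 to 0.531 for Enpep, -0.16 to 0.425 for Anpep, -0.0271 to 0.128 for Prcp, -0.371 to 0.0544 for Bdkrb2, -0.844 to 0.285 for Cma1, -0.213 to 0.173 for Rnpep, -0.197 to 0.151 for Agtrap, -0.12 to 0.183 for Mme and -0.441 to 0.596 for Lnpep. The ranges were -0.0485 to 0.44 for Trem2, -0.566 to 0.575 for Cxcl14, -0.672 to 0.043 for Scgb3a2, -0.0558 to 0.277 for Eln, -0.0175 to 0.691 for Apoe, -0.506 to 1.21 for S100a9 and -0.629 to 0.327 for Tagln. No paired analysis was possible because the animal numbers are not shared between the groups.

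With 3 rats per group, differences of under 2-fold in genes below 10 FPKM were often not detectable, and larger differences were not called either. With all 6 libraries, edgeR called none of the 475 genes with a fitted change of more than 2-fold. LOC100911372 had 127 to 153 FPKM with losartan against 17.9 to 37.8 FPKM with vehicle, and its edgeR adjusted p was 0.272. Los_964 was the highest or lowest lung for 25 of 50 lists. The labels do not say what the number series stands for, so it cannot be told apart from any other difference between the animals. Genes with 0 reads in all losartan libraries were not analysed here.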
